A study of Mus musculus with 21 samples.

Results

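Macrophages that had received recombinant lumican before CpG DNA were compared with macrophages that had received CpG DNA alone. The comparison was made within 2 genotype labels, so it rests on 4 of the 21 libraries of the series, in 2 pairs. The lumican libraries are 1 labelled Lum-/- (the lumican gene deleted) and 1 wild type. Both were given 10 µg/mL of recombinant lumican for 1 h and then 1 µM CpG for 6 h. The libraries with CpG alone are again 1 labelled Lum-/- and 1 wild type, given the same CpG for 6 h without protein. All 4 hold CD11b+ cells of C57BL/6 mice, flushed from peritoneal cavities with no eliciting agent. The cells stood overnight in medium with 1% charcoal-stripped serum and were stimulated without serum. The labels give 10 mice and tie no well to an animal, so a genotype label cannot be told apart from its cell preparation. With 1 library for each genotype label and treatment, the p-values below rest on the spread between the 2 pairs, which may be technical. For each gene that spread is moderated by that of all tested genes.

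CpG DNA is a ligand of TLR9, a receptor of the endosome. TLR9 signals through the adaptor MyD88 to NF-kB, which switches on chemokine and cytokine genes, and to IRF7, which switches on type I interferon. Interferon then acts back on the cells and switches on antiviral genes, many of which hold an interferon-stimulated response element (ISRE). Lumican is a small leucine-rich proteoglycan of the extracellular matrix. Its core protein is known to bind CD14, a co-receptor that several Toll-like receptors use. The pairs ask what the added protein changes in the CpG response.

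Transcript levels are TPM (transcript levels scaled to each library's total) summed per gene. The depth is unknown, since the deposited table gives no counts. Between 17551 and 17943 genes lay above 0 in the 4 libraries. Lum itself, the gene of lumican, goes against its label. It stood at 3.93 TPM in the lumican library labelled Lum-/- and 0.324 TPM in the wild-type lumican library, against 2.88 TPM with CpG alone under the label Lum-/- and 0.273 TPM in the wild type. The libraries labelled for its deletion were thus higher than the wild type, so no direction is drawn from the genotype labels and each difference is taken within a label. Bgn, the gene of the related proteoglycan biglycan, was listed at 0 and 1.52 TPM with lumican, against 0.0325 and 0.961 TPM with CpG alone. Here and below, the first of 2 values for a treatment is the library labelled Lum-/- and the second the wild-type library. The mean of Bgn fell below the filter and it was not tested. Summed large peritoneal macrophage markers (21 genes) stood at 36103 and 34065 TPM with lumican, against 36449 and 35724 TPM with CpG alone. Lyz2 made up most of each sum, at 31203 and 29231 TPM with lumican, against 30628 and 31067 TPM with CpG alone. B cell markers summed to 613 and 927 TPM with lumican, against 663 and 794 TPM with CpG alone. Mast cell markers differed between labels more than between treatments, at 16.8 and 126 TPM with lumican, against 15.5 and 152 TPM with CpG alone. Neutrophil markers summed to 435 and 465 TPM with lumican, against 451 and 450 TPM with CpG alone, mostly from S100a8, Csf3r, Mmp8 and Mmp9. Plasma cell markers summed to 611 and 903 TPM with lumican, against 646 and 839 TPM with CpG alone, mostly from Igkc. The summed markers of T and NK cells, dendritic cells, eosinophils and basophils, mesothelium and fibroblasts, and erythrocytes and platelets lay between 2.50 and 68.5 TPM in each library. Within these lists, Ly6g (neutrophils), Epx (eosinophils), Mcpt8 (basophils), Tnfrsf17 (plasma cells), Muc16 (mesothelium), Hba-a1 (erythrocytes) and Gp9 (platelets) were at 0 in all 4. The labels also give the ratio of absorbance at 260 and 230 nm, a measure of RNA purity. It was 2.7 and 1.81 with lumican, against 0.13 and 3.23 with CpG alone, and its part in the results was not tested.

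Lower with lumican were the Fc receptor genes Fcgr1 and Fcgr4, the complement genes C1qa and C1qb, the interferon-induced genes Ifit2 and Ifit3, the chemokine gene Cxcl13, the arginase gene Arg1 and the matrix gene Tgfbi. Higher were the chemokine genes Cxcl2 and Cxcl3 and the transporter gene Slc6a12. By limma with Benjamini-Hochberg adjustment, 39 of 11752 tested genes (0.332%) passed an adjusted p of 0.05, of which 13 (0.111%) were higher and 26 (0.221%) lower. Only 5 of the higher and 13 of the lower genes code for protein. The count rests on 1 residual degree of freedom and moved widely with the choices of processing, between 0 and 143. The direction of each of these 12 genes was kept in 18 of 18 settings, other than Ifit3 with 16. Most settings reuse these pairs, in which each of the 12 genes had the same sign, so its direction could not change there. Those settings are thus no check of the direction. Ifit3 turned in the fits of 21 and 18 libraries, which bring in libraries outside the pairs. Leaving out any 1 of the 4 libraries leaves a single full pair, whose own spread cannot be measured, so the calls could not be backed that way.

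**Figure D1:**
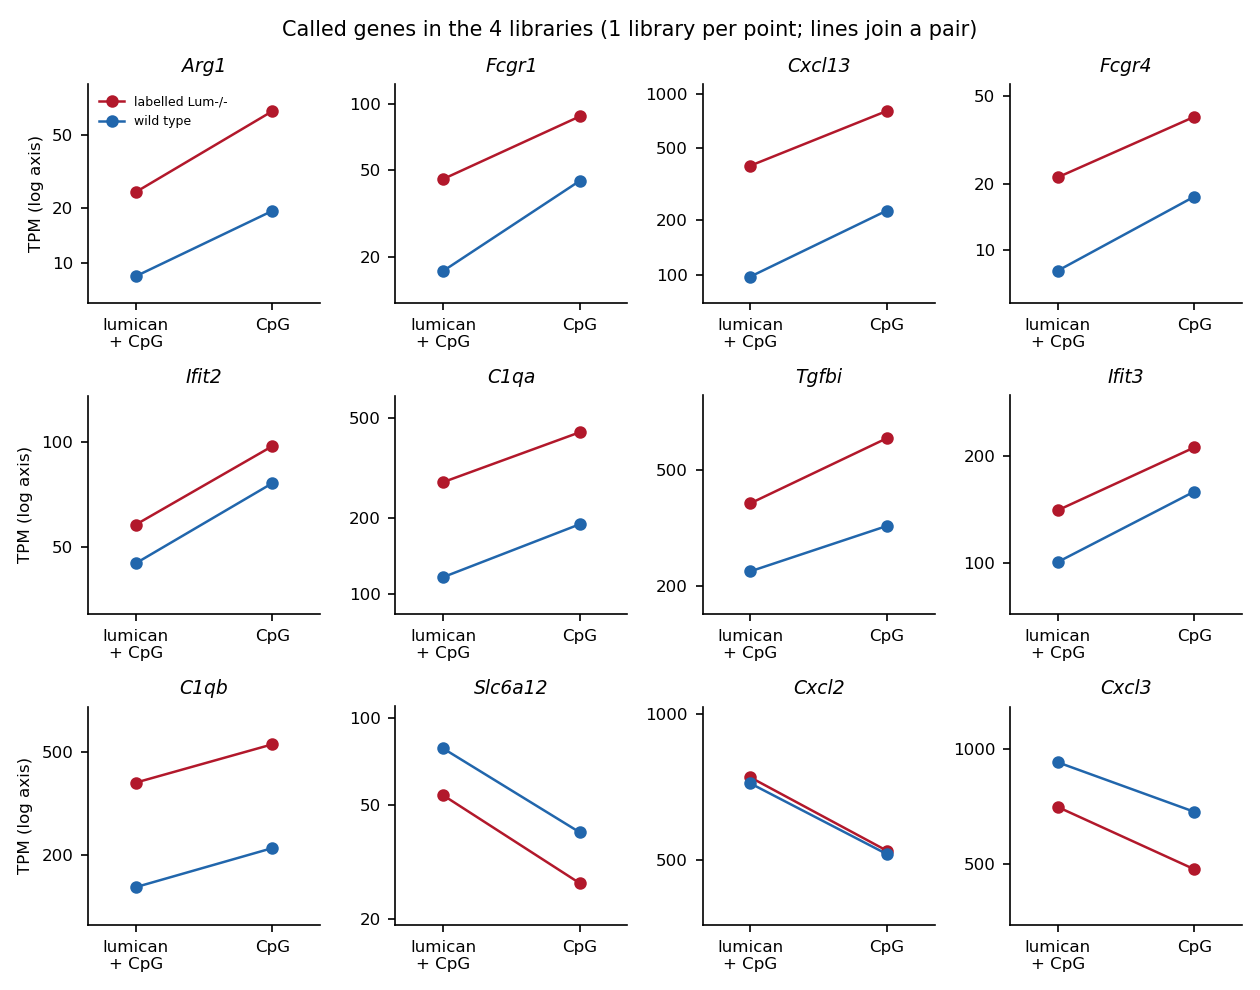
TPM (log axis) of 12 called genes in the 4 libraries, 1 point per library, with lumican plus CpG on the left and CpG alone on the right of each panel and a line joining the 2 libraries of a genotype label. All 12 lines of the label Lum-/- slope the same way as those of the wild type, down towards lumican for 9 genes and up for Slc6a12, Cxcl2 and Cxcl3.

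Promoter sequence is shown for the 6 called genes whose stretch of 250 bases before the start held an ISRE or an NF-kB match, since these are the elements through which interferon and TLR9 signalling act on genes. The ISRE was searched as a GAAA block, any 2 bases and a further GAAA block, and NF-kB as GGGA, any base and TTTCC, on both strands. No stretch held both, so the 2 motifs nowhere overlapped. Sequences are from RefSeq, build GRCm38.p6, written along the gene's strand with the matches in capitals. The start meant here is the end of each stretch, which is not the first base of the gene coordinates given below. The Slc6a12 stretch ends at 121342573, while those coordinates begin at 121343076. The Tgfbi, Fcgr4 and Cxcl2 stretches end past the first base given for the gene. The first 3 belong to genes that were lower with lumican and hold an ISRE match.
Ifit3 promoter, chr19:34583279-34583528, + strand: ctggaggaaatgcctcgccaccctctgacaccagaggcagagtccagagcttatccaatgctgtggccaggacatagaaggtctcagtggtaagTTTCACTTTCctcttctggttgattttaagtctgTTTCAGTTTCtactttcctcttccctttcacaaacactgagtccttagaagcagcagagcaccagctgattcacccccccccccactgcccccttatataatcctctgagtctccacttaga
Tgfbi promoter, chr13:56609336-56609585, + strand: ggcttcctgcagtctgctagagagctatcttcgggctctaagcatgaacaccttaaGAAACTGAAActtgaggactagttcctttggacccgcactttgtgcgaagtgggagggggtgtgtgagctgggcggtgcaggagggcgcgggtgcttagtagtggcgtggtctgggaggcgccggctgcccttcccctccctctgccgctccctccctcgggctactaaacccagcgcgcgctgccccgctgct
Fcgr4 promoter, chr1:171018676-171018925, + strand: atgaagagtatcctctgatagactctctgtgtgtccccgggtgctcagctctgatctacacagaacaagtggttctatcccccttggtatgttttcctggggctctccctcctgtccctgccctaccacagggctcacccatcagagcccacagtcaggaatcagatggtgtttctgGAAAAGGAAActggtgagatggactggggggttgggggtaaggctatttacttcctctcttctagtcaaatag
The other 3 belong to genes that were higher with lumican and hold an NF-kB match.
Slc6a12 promoter, chr6:121342324-121342573, + strand: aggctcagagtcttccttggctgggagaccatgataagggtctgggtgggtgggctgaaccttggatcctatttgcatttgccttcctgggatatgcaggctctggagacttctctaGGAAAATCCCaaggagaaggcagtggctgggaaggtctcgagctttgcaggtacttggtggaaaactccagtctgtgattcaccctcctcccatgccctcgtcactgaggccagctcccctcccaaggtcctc
Cxcl2 promoter, chr5:90903649-90903898, + strand: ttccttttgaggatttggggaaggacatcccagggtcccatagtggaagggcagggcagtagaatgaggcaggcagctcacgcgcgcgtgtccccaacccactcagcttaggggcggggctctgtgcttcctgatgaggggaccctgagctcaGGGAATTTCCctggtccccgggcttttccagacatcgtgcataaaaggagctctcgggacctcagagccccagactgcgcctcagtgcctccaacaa
Cxcl3 promoter, chr5:90785851-90786100, + strand: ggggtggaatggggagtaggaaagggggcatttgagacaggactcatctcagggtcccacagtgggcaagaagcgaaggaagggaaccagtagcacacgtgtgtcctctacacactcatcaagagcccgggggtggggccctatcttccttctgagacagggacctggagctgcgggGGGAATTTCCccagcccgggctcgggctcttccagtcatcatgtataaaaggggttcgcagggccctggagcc

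Over windows that also took in 50 bases after the start, the NF-kB letters were in 104 of all 27025 promoters given (0.385%) and the ISRE letters in 943 (3.49%). The genes at least 2-fold apart in both pairs, 27 in all, had 6 promoters in the table, of which 0 held these letters or those of AP-1 (TGANTCA) or CREB/ATF (TGACGTCA) and 1 held the E-box CACGTG. Among the genes called higher, 4 of 13 had a promoter in the table and 3 of these 4 held the NF-kB letters. Among the genes called lower, 11 of 26 had a promoter, of which 3 (27.3%) held the ISRE letters and 0 the NF-kB letters. Cxcl2 and Cxcl3 carried the NF-kB letters at 97 and 73 bases before the start, and Slc6a12 at 133. Ifit3 carried 2 ISRE matches, at 156 and 122 bases before the start, against 1 each at 194 in Tgfbi and 73 in Fcgr4. A match is a description of the letters and no evidence of binding. Of the list of interferon-stimulated genes below, 35 of 46 had a promoter and 20 of these (57.1%) held the ISRE letters.

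Ifit2 and Ifit3 code for interferon-induced proteins that bind viral RNA or signalling adaptors. Ifit2 (ENSMUSG00000045932, chromosome 19, 34550694 to 34576419, GRCm38) stood at 58.0 TPM in the lumican library labelled Lum-/- and 44.8 TPM in the wild-type lumican library, against 97.5 and 76.3 TPM with CpG alone. Both lumican libraries lay below both libraries with CpG alone, though the share of all tested genes without such overlap was not counted. The log2 difference was -0.75 ± 0.10 (2 pairs, SE moderated over all tested genes, here and below), with a limma adjusted p of 0.0117. Ifit3 (chromosome 19, 34583531 to 34588731) stood at 140.3 and 100.4 TPM with lumican, against 211 and 158 TPM with CpG alone. Its groups again did not overlap, and the log2 difference was -0.62 ± 0.09, with a limma adjusted p of 0.0184. In additive fits of 21 or 18 libraries, which assume the same response under every genotype label, it was 0.13 or 0.044. Ifit3 shares 61.8% of its 31-base words with its neighbouring copy Ifit3b, so the pair was also summed. The summed levels had log2 differences of -0.57 in the pair labelled Lum-/- and -0.66 in the wild-type pair.

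Most other genes of the interferon list had the same sign but did not pass the test. Of its 46 genes, 38 were lower with lumican in both pairs and 1, Irf1, was higher in both, against 22.3% lower and 26% higher in both pairs over all tested genes. In the pair labelled Lum-/-, 45 of 46 were lower, against 63% of all tested genes, and the median log2 difference was -0.33, against -0.06 over all genes. In the wild-type pair 38 of 46 were lower, against 33.2% of all genes, with medians of -0.22 for the list and 0.08 for all genes. Ifit2 and Ifit3 were the 2 called members, and 26 members had an unadjusted p under 0.05 and were lower, against 3.14% of all genes, and 0 were higher, against 3.22%. The other settings of scaling gave 40 to 43 members lower in both pairs and 1 higher. Cxcl10, an interferon-induced chemokine gene, stood at 58.1 and 30.7 TPM with lumican, against 79.3 and 62.1 TPM with CpG alone, with an adjusted p of 0.0904. Isg15, the ubiquitin-like modifier, stood at 322 and 214 TPM with lumican, against 410.5 and 298 TPM with CpG alone (adjusted p 0.12). Rsad2 (viperin), Mx1 and Isg20 had mean log2 differences of -0.52, -0.47 and -0.60. Irf7, the factor that TLR9 acts through, stood at 433 and 213 TPM with lumican, against 537 and 267 TPM with CpG alone, and its log2 difference of -0.32 ± 0.08 did not pass (adjusted p 0.264) and was 0.18 or 0.14 in the additive fits. In Oas2 and Oas1g, which code for the RNA-sensing synthetases, the pairs went opposite ways.

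**Figure D2:**
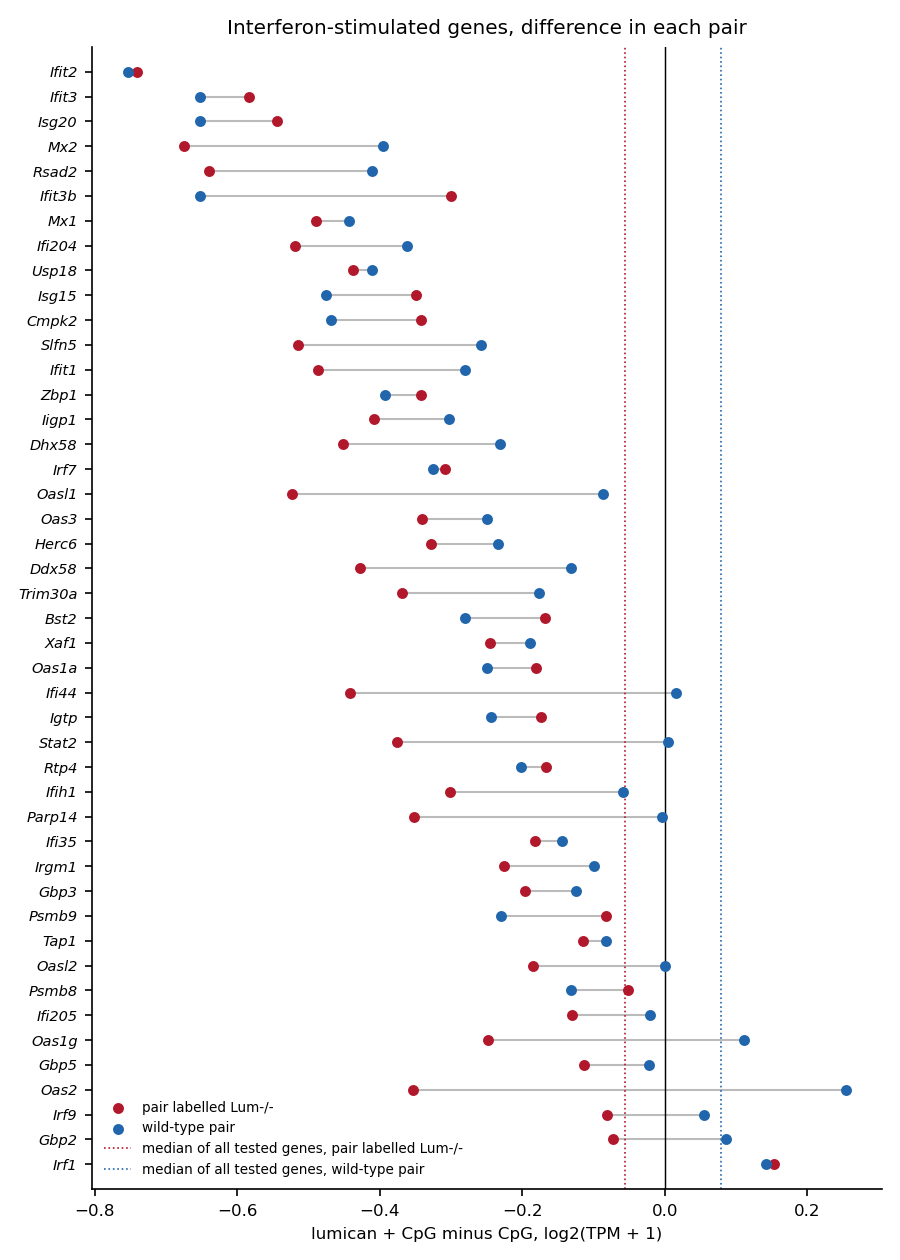
Difference in log2(TPM + 1), lumican plus CpG minus CpG alone, for 45 interferon-stimulated genes, with 1 point for the pair labelled Lum-/- and 1 for the wild-type pair. Dotted lines mark the medians of all tested genes, -0.06 and 0.08. Most members lie left of both lines, rows run by the mean of the pairs with Ifit2 and Ifit3 at the top, and Irf1, in the lowest row, lies at 0.15 and 0.14.

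Fcgr1 codes for CD64, the high-affinity IgG receptor, and Fcgr4 for a receptor of IgG2 subclasses. Fcgr1 (chromosome 3, 96282909 to 96293969) stood at 45.3 and 17.2 TPM with lumican, against 87.6 and 44.4 TPM with CpG alone. Each lumican library was lower than its own pair member, although the lumican library labelled Lum-/- and the wild-type library with CpG alone were level. The log2 difference was -1.13 ± 0.12, with a limma adjusted p of 0.00381. Fcgr4 (chromosome 1, 171018920 to 171029761) stood at 21.4 and 8.09 TPM with lumican, against 40.1 and 17.5 TPM with CpG alone, and fell by 0.95 ± 0.13 on the log2 scale (adjusted p 0.0148). Fcgr3, the activating low-affinity receptor, stood at 336 and 365 TPM with lumican, against 415 and 421 TPM with CpG alone, and did not pass (adjusted p 0.515). Fcgr2b, the inhibitory receptor, stood at 1090 and 904 TPM with lumican, against 1119 and 818 TPM with CpG alone, with the pairs going opposite ways. Fcer1g, the signalling chain that the activating receptors share, stood at 1864 and 1808 TPM with lumican, against 1805 and 1820 TPM with CpG alone. Of the 18 Fc and inhibitory receptors tested, 2 were called, both lower, against 0.332% called over all tested genes. The medians of the 18 were -0.07 in the pair labelled Lum-/- and 0.01 in the wild-type pair, against -0.06 and 0.08 over all genes.

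C1qa and C1qb code for chains of C1q, the first component of complement, which macrophages secrete. C1qa (chromosome 4, 136895917 to 136898803) stood at 278 and 117 TPM with lumican, against 438 and 189 TPM with CpG alone. Its log2 difference was -0.67 ± 0.08, with a limma adjusted p of 0.0079. C1qb stood at 382 and 151 TPM with lumican, against 536 and 213 TPM with CpG alone, and fell by 0.49 ± 0.08 (adjusted p 0.0403). The third chain, C1qc, had the same size of difference, -0.49 ± 0.09, but an adjusted p of 0.0718, at 183 and 74.6 TPM with lumican, against 264 and 102 TPM with CpG alone. All 3 were lower within each label, and all 3 levels were higher under the label Lum-/- than in the wild type. The C1q genes belong to the list of 24 scavenger and uptake receptors. Of these, 13 were lower in both pairs and 5 higher, against 22.3% and 26% of all tested genes. C1qa and C1qb were the called members, against 0.332% called over all tested genes. Clec4e and Clec7a, lectin receptors for microbial glycolipid and glucan, had log2 differences of 0.21 ± 0.08 and -0.21 ± 0.08, and neither passed (adjusted p 0.619 each).

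Cxcl13 codes for the chemokine that draws B cells and is a marker of resident peritoneal macrophages. It (chromosome 5, 95956951 to 95961068) stood at 401 and 97.6 TPM with lumican, against 804 and 226 TPM with CpG alone. Its log2 difference was -1.10 ± 0.09, with a limma adjusted p of 0.000752, and of 0.00965 in the fit of 8 libraries. In that fit Arg1 (adjusted p 0.209) and Tgfbi (0.08), given below, did not pass. Of the 20 large peritoneal macrophage markers tested, Cxcl13 was the called one. Of these markers 4 were higher and 6 lower in both pairs, against 26% and 22.3% of all tested genes. The summed markers of that type, mostly from Lyz2, are given above. In bulk RNA, fewer cells of a type and less RNA per cell cannot be told apart. Arg1 codes for arginase, which consumes arginine and marks alternatively activated macrophages. It (chromosome 10, 24915221 to 24927484) stood at 24.3 and 8.43 TPM with lumican, against 67.2 and 19.2 TPM with CpG alone, a log2 difference of -1.26 ± 0.13 (adjusted p 0.00381). Arg1 was the called member among 15 alternative activation genes, of which 4 were higher and 5 lower in both pairs. Tgfbi codes for a secreted matrix protein that TGF-beta induces. It (chromosome 13, 56609523 to 56639562) stood at 385 and 225 TPM with lumican, against 643 and 322 TPM with CpG alone, a log2 difference of -0.63 ± 0.09 (adjusted p 0.0173). Tgfbi was also the called member among 19 proteoglycan and matrix genes. None of 16 listed TGF-beta targets, to which Tgfbi was not assigned, was called, and their medians went opposite ways, -0.20 in the pair labelled Lum-/- and 0.13 in the wild-type pair.

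Higher with lumican were a pair of neighbouring neutrophil chemokine genes. Cxcl2 (chromosome 5, 90903871 to 90905938) stood at 742 and 721 TPM with lumican, against 524 and 515 TPM with CpG alone. The 2 libraries of each treatment nearly coincided, and the log2 difference was 0.49 ± 0.08 (limma adjusted p 0.0343). The groups did not overlap, here and for Slc6a12 below, but the share of all tested genes without overlap was not counted. Cxcl3 (chromosome 5, 90786103 to 90789600) stood at 706 and 925 TPM with lumican, against 485 and 686 TPM with CpG alone, a log2 difference of 0.49 ± 0.08 (adjusted p 0.0395). The 2 genes share 7.59% of the 31-base words of Cxcl2. Cxcl1, which acts on the same receptor, stood at 123 and 189.7 TPM with lumican, against 88.9 and 142 TPM with CpG alone, and its difference of 0.44 ± 0.09 did not pass (adjusted p 0.12). Slc6a12 codes for a transporter of betaine and GABA. It (chromosome 6, 121343076 to 121365775) stood at 54.0 and 78.6 TPM with lumican, against 26.7 and 40.1 TPM with CpG alone. Both lumican libraries lay above both libraries with CpG alone, and the log2 difference of 0.97 ± 0.10 was the largest rise among called coding genes with a proper symbol (adjusted p 0.00381). Of the 25 chemokine list genes, Cxcl2 and Cxcl3 rose and Cxcl13 fell, with 8 higher and 13 lower in both pairs. Over all tested genes, 26% were higher and 22.3% lower in both pairs, and 0.332% were called. Ccl6, a chemokine that macrophages secrete, stood at 80.3 and 81.3 TPM with lumican, against 112 and 112 TPM with CpG alone (adjusted p 0.106). Ccl24, an eosinophil attractant, stood at 22.8 and 31.4 TPM with lumican, against 32.6 and 42.2 TPM with CpG alone (adjusted p 0.258).

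**Figure D3:**
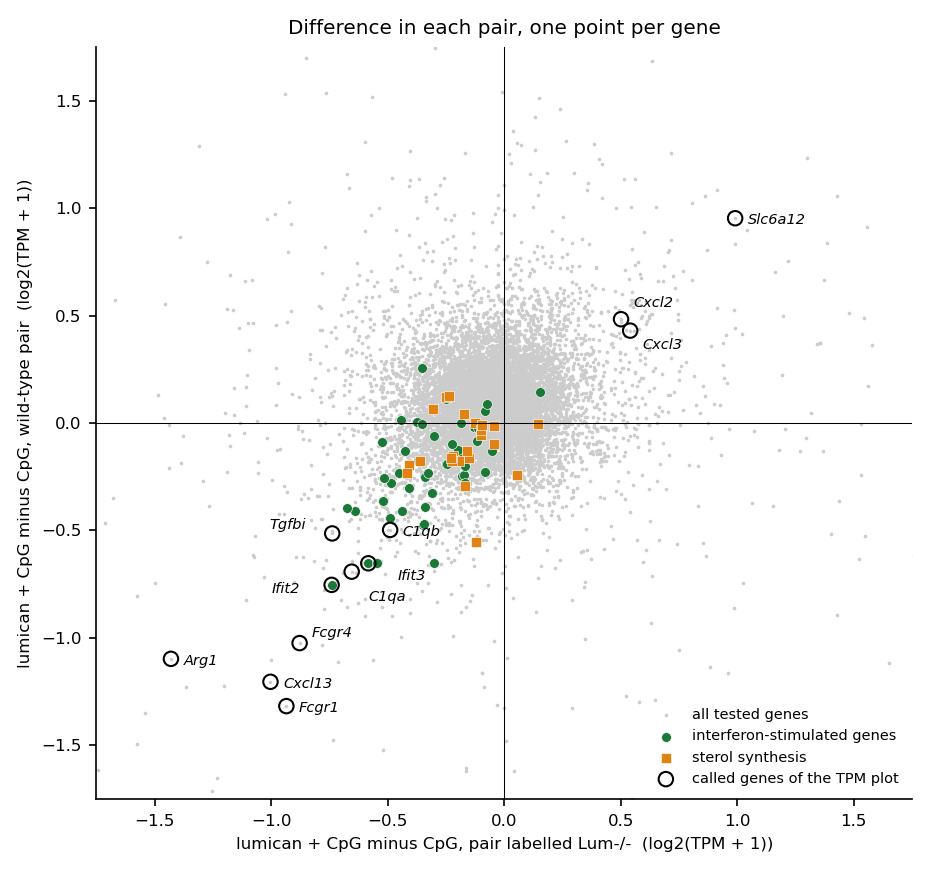
Difference in log2(TPM + 1), lumican plus CpG minus CpG alone, in the pair labelled Lum-/- (horizontal) against the wild-type pair (vertical), 1 point per tested gene, with 108 genes outside the axes. Grey points spread round the centre in all directions (Pearson's r 0.113), while the interferon-stimulated genes (green) and sterol genes (orange) lie mostly left of and below the centre and the 12 ringed genes near the diagonal.

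Most genes did not move together in the pairs. The correlation of the 2 differences across the 11752 tested genes was 0.113 (Pearson's r, a description, since genes are not independent replicates). A difference of 2-fold or more occurred in 162 genes (1.38%) in the pair labelled Lum-/- and 164 (1.4%) in the wild-type pair. In both pairs and the same direction it occurred in 27 genes (0.23%), 11 higher (0.0936%) and 16 lower (0.136%), and in opposite directions in 16 (0.136%). Arg1 and Cxcl13 were 2 of the 8 coding genes among the 27, and 21 of the 27 were gene models without a proper symbol. The medians of all genes were -0.06 in the pair labelled Lum-/- and 0.08 in the wild-type pair. The SD of the differences was 0.33 and 0.32.

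Genes of the TLR9 route itself were near the median of all genes. Tlr9 stood at 2.99 and 4.95 TPM with lumican, against 3.57 and 4.07 TPM with CpG alone (adjusted p 0.999). Myd88, the adaptor, stood at 123 and 97.0 TPM with lumican, against 127 and 104 TPM with CpG alone, and Unc93b1, which carries TLR9 to the endosome, at 399 and 382 TPM with lumican, against 434 and 386 TPM with CpG alone. None of 23 TLR9 pathway genes was called, with 5 higher and 7 lower in both pairs and medians of -0.05 and 0.08. Cd14, the lumican-binding co-receptor, stood at 1077 and 864 TPM with lumican, against 946 and 696 TPM with CpG alone, a log2 difference of 0.25 ± 0.08 that did not pass (adjusted p 0.515). Tlr4 stood at 46.7 and 46.2 TPM with lumican, against 44.7 and 40.5 TPM with CpG alone. Of the 12 lumican partner genes tested, 0 were called, and of 16 TLR4 pathway genes 0. Ly86, which codes for the partner of the TLR4-like receptor CD180, had the largest difference there, -0.45 ± 0.10 (adjusted p 0.149).

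No inflammatory cytokine gene was called among 25 tested. Tnf stood at 381 and 413 TPM with lumican, against 331 and 339 TPM with CpG alone, and its log2 difference of 0.24 ± 0.08 did not pass (adjusted p 0.563). Il6 stood at 13.7 and 15.3 TPM with lumican, against 10.7 and 15.8 TPM with CpG alone, so the pairs went opposite ways. Il10, which restrains inflammation, stood at 20.05 and 18.6 TPM with lumican, against 20.997 and 17.3 TPM with CpG alone. Il12b, a chain of interleukins that drive T cell responses, stood at 5.21 and 5.97 TPM with lumican, against 2.61 and 4.73 TPM with CpG alone (adjusted p 0.64). Il1rn, the antagonist of interleukin-1, had a log2 difference of -0.37 ± 0.09 (adjusted p 0.237). Saa3, the acute-phase gene at the top of the libraries, took 111728 and 77043 TPM with lumican, against 100532 and 87131 TPM with CpG alone. In all, 13 cytokine genes were higher and 4 lower in both pairs, against 26% and 22.3% of all tested genes. The cytokine medians were 0.09 and 0.10. Among 25 NF-kB subunits, inhibitors and targets, 11 were higher and 3 lower in both pairs and none was called. Nfkbia, the inhibitor that NF-kB itself induces, stood at 440.2 and 419 TPM with lumican, against 435 and 405 TPM with CpG alone.

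Genes of sterol synthesis had small differences, most of them lower with lumican. Of 23 tested, 16 were lower in both pairs, 0 higher and 7 opposite, against 22.3% lower and 26% higher over all tested genes. The medians were -0.17 in the pair labelled Lum-/- and -0.13 in the wild-type pair, against -0.06 and 0.08 over all genes. None was called, and 6 had an unadjusted p under 0.05 (limma), all lower, against 3.14% of all genes. Hmgcs1, which makes the precursor of mevalonate, stood at 99.7 and 77.8 TPM with lumican, against 133 and 89.4 TPM with CpG alone, a log2 difference of -0.30 ± 0.10. Cyp51, the lanosterol demethylase, stood at 72.8 and 57.1 TPM with lumican, against 97.4 and 67.2 TPM with CpG alone, at -0.32 ± 0.10. Of 16 fatty acid synthesis genes, 1 was higher and 4 lower in both pairs. Antigen presentation genes had 13 of 20 lower and 2 higher in both pairs, with none called. Cell cycle genes had 13 of 32 lower and 4 higher, with none called. The shares of all tested genes are the 22.3% lower and 26% higher given above. Glycolysis genes had medians of opposite sign, -0.14 in the pair labelled Lum-/- and 0.10 in the wild-type pair. No member of the other lists plotted was called, other than Arg1, Tgfbi and mt-Co2. The metallothionein gene Mt2 stood at 45.1 and 38.5 TPM with lumican, against 69.9 and 52.8 TPM with CpG alone (adjusted p 0.114).

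**Figure D4:**
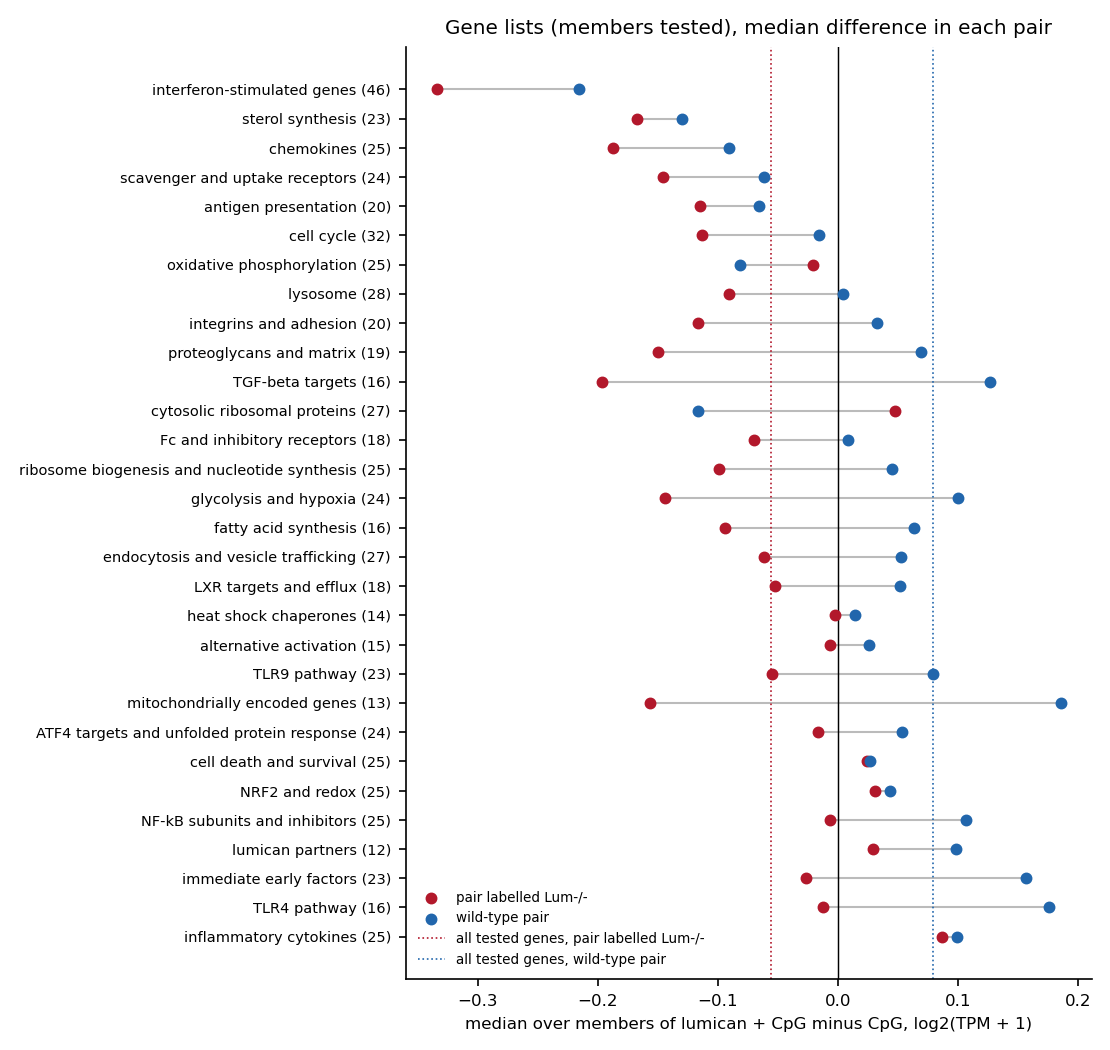
Median difference in log2(TPM + 1), lumican plus CpG minus CpG alone, over the tested members of 30 gene lists (number in brackets), with 1 point for the pair labelled Lum-/- and 1 for the wild-type pair and dotted lines at the medians of all tested genes. Interferon-stimulated genes lie furthest to the left in both pairs, sterol synthesis and chemokine genes follow, and inflammatory cytokine genes lie at the bottom, at 0.09 and 0.10.

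Several calls lay in genes that share their sequence with another gene, where reads could have been split differently between copies. Of the 39 called genes, 12 shared at least 90% of their 31-base words with another gene, 18 at least 50% and 17 under 10%. The mitochondrial gene mt-Co2, a subunit of cytochrome oxidase, stood at 4473 and 5610 TPM with lumican, against 2721 and 3105 TPM with CpG alone, and was called higher (adjusted p 0.0032). Gm28661, a nuclear pseudogene on chromosome 1 that shares 100% of its words with mt-Co2, stood at 1066 and 1017 TPM with lumican, against 3182 and 2862 TPM with CpG alone. Their sum stood at 5539 and 6627 TPM with lumican, against 5903 and 5967 TPM with CpG alone, and its differences were of opposite sign, -0.09 and 0.15. Pgam1-ps2 was likewise called lower, and its sum with Pgam1 differed by -0.09 and 0.07. Cd300ld5, of the CD300 receptor family, was called lower at 4.82 and 1.11 TPM with lumican, against 12.4 and 3.94 TPM with CpG alone, and shares 100% of its words with other genes, most with Cd300ld4. The sum of Cd300ld5 and Cd300ld4 was lower in both pairs, by log2 differences of -0.64 and -0.46. Mylpf, a muscle myosin light chain, was called lower at 2.16 and 2.47 TPM with lumican, against 6.54 and 10.4 TPM with CpG alone. Unlike the genes before it, Mylpf shares 0 of its 1057 words with another gene. The genes with shared words are uncertain. Among the called genes, 9 higher and 11 lower were gene models without a proper symbol, and 6 higher and 5 lower were at 0 TPM in both libraries of a group.

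Outside the called genes, the largest positive mean differences among genes of at least 10 TPM included that of Ctrc, a digestive protease gene, at 14.6 and 7.74 TPM with lumican, against 5.96 and 4.36 TPM with CpG alone (adjusted p 0.0941). Fxyd2, a regulator of the sodium pump, stood at 48.4 and 41.1 TPM with lumican, against 28.5 and 27.3 TPM with CpG alone (adjusted p 0.0563). Tnfrsf23, a decoy receptor for TRAIL, stood at 17.6 and 17.4 TPM with lumican, against 11.4 and 10.5 TPM with CpG alone (adjusted p 0.153). Both lumican libraries lay above both others in each of these genes, which were picked for large rises of one sign. The share of all tested genes without overlap was not counted, here or for the genes above. The largest negative ones included that of Spint1, an inhibitor of serine proteases, at 8.13 and 4.21 TPM with lumican, against 14.6 and 8.48 TPM with CpG alone (adjusted p 0.102). Itgb5, an integrin chain, stood at 11.9 and 6.58 TPM with lumican, against 23.01 and 10.7 TPM with CpG alone (adjusted p 0.11). Among genes with a proper symbol and at least 10 TPM in 1 library, those that moved most in opposite directions were Mup-ps24, Iglj3p, Igkv5-43, Ighj4, Hist2h2aa1, Igkv12-89, Pan3 and Ttf1, several of them antibody gene segments.

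Genes that respond to CpG were taken from libraries outside both pairs, CpG against untreated cells labelled Bgn-/- (the biglycan gene deleted), with 1 library each. Bgn itself goes against this label. It stood at 3.49 TPM with CpG and 0.948 TPM untreated, against 0.961 and 0.796 TPM in the wild type. In the libraries labelled Bgn-/-, 202 tested genes were at least 2-fold higher with CpG. Of these, 50 (24.8%) were higher and 70 (34.7%) lower with lumican in both pairs, against 26% and 22.3% of all tested genes, and 1 belonged to the interferon list. The medians were -0.14 in the pair labelled Lum-/- and 0.06 in the wild-type pair. Of these 202 genes, 7 were called, against 39 of all 11752 tested genes (0.332%). Arg1, Cxcl13, Fcgr1, Tgfbi, Igkj2 and Pgam1-ps2 were lower with lumican and Gm21961 was higher. In the libraries labelled Bgn-/-, Cxcl13 stood at 584 TPM with CpG, against 208 TPM untreated, and Arg1 at 18.4 TPM with CpG, against 2.67 TPM untreated. Tgfbi stood at 319 TPM with CpG, against 62.4 TPM untreated, and Fcgr1 at 14.02 TPM with CpG, against 6.07 TPM untreated. Slc6a12 went the other way, at 28.2 TPM with CpG, against 48.1 TPM untreated. Ifit2, at 9.36 TPM with CpG and 8.26 TPM untreated, was not among the 202. Among 75 genes at least 2-fold lower with CpG, 23 (30.7%) were higher and 12 (16%) lower with lumican in both pairs. Of the 18 called coding genes, 13 (72.2%) had a lumican difference opposite in sign to this Bgn-/- response, against 53.7% of all tested genes. Levels with CpG against untreated did not go the same way under every label, with 1 library each. Under the label Lum-/-, Arg1 stood at 67.2 TPM with CpG, against 688 TPM untreated, and Fcgr1 at 87.6 TPM, against 188 TPM. In the wild type, Cxcl13 stood at 226 TPM with CpG, against 453 TPM untreated. In the other label of these genes, and in both labels for Tgfbi, the level was higher with CpG. The untreated library labelled Lum-/- had 14263 genes above 0, against 17792 with CpG under that label and 17140 in the untreated wild-type library. Both of these untreated libraries stood apart and were left out of the additive fit of 18 libraries. Whether the CpG response differs between labels was not tested.

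The same protein was also given before LPS, a ligand of TLR4, for the same genotype labels, in 4 libraries that share none with the CpG pairs. In a fit of all 8 libraries, lumican with LPS called 130 genes higher (1.11%) and 116 lower (0.987%). The residual spread of that fit was pooled over the CpG and LPS pairs. Its adjusted p-values with LPS are thus not independent of the calls with CpG. Fcgr1 stood at 52.2 and 28.2 TPM with lumican and LPS, against 179 and 111 TPM with LPS alone, a log2 difference of -1.76 in the pair labelled Lum-/- and -1.94 in the wild-type pair (limma adjusted p 0.00328). Fcgr4 differed by -1.68 and -1.76 (adjusted p 0.00328), Cxcl13 by -1.04 and -0.96 (adjusted p 0.00362) and Arg1 by -1.82 and -0.85 (adjusted p 0.0392). Slc6a12 stood at 13.7 and 30.8 TPM with lumican and LPS, against 7.35 and 13.6 TPM with LPS alone (adjusted p 0.018). Cxcl2 and Cxcl3 also rose, with adjusted p of 0.049 and 0.0385. C1qa and C1qb fell (adjusted p 0.0363 each) and so did Ifit2 (adjusted p 0.0434), while Ifit3 (0.0534) and Tgfbi (0.219) did not pass. Of the 18 coding genes called with CpG, 12 (66.7%) had the same sign in both LPS pairs, against 42.6% of all tested genes. The exceptions were Gm21961, mt-Co2, Cd300ld5, Gm14308, Zfp972 and Mylpf, which are the called coding genes left out of the plots of 12 genes. Interferon list medians with LPS were -0.10 in the pair labelled Lum-/- and -0.40 in the wild-type pair, and sterol medians were -0.08 and 0.20, against 0.08 and 0.13 over all tested genes. In the wild-type LPS pair 2 of 23 sterol genes were lower, so the mostly lower levels seen with CpG were not seen there.

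The difference between the lumican responses was tested in the same 8 libraries. Of 11752 genes, 5 (0.0425%) differed by limma with an adjusted p under 0.05, and all 5 were gene models or pseudogenes. None of the 12 genes of the TPM plot was among them. For Fcgr1 the response with CpG was 0.72 higher on the log2 scale than with LPS (adjusted p 0.376), for Fcgr4 0.77 (adjusted p 0.299) and for Cxcl13 the adjusted p was 0.817. Among genes that missed the threshold were Lipg, an endothelial lipase gene, with a difference of 1.64, and Ccl7, which codes for a monocyte chemokine, with 1.33 (adjusted p 0.0642 each). A p above the threshold does not show that the responses were alike.

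**Figure D5:**
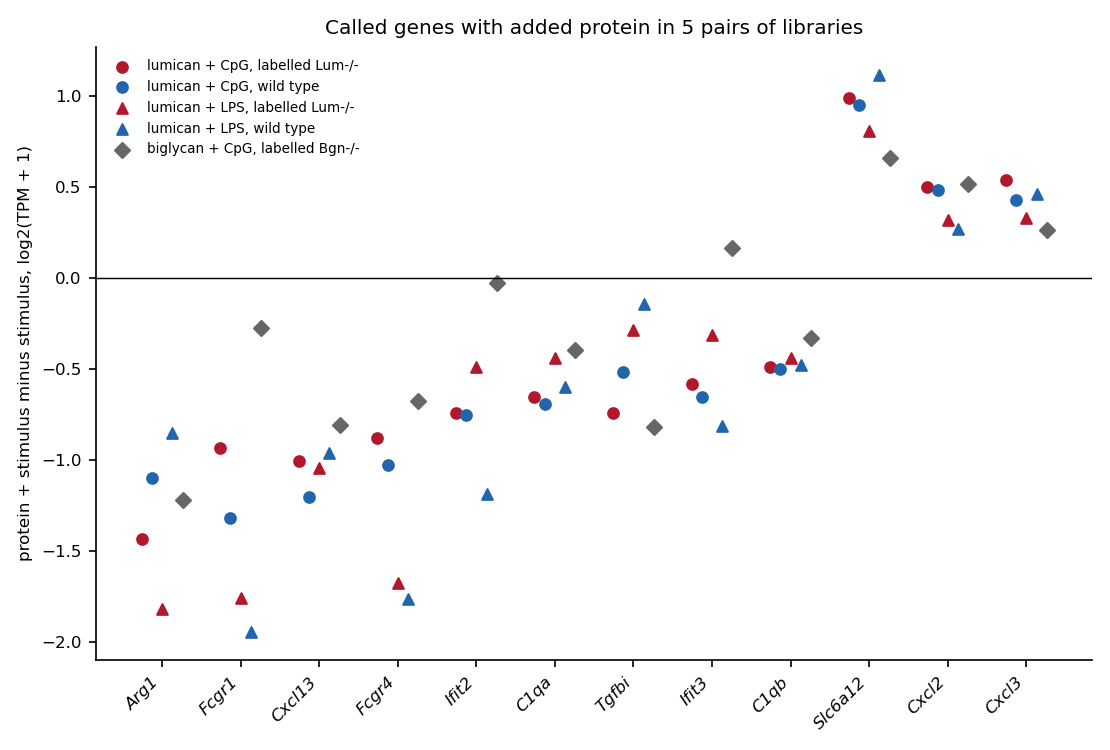
Difference in log2(TPM + 1), added protein plus stimulus minus stimulus alone, of the 12 called genes in 5 pairs of libraries (lumican with CpG, lumican with LPS and, in libraries labelled Bgn-/-, biglycan with CpG), which share no library with each other. Slc6a12, Cxcl2 and Cxcl3 lie above 0 in all 5, 8 of the other 9 lie below 0 in all 5, with Ifit2 at -0.03 with biglycan, and Ifit3 lies at 0.17 with biglycan. The called coding genes not plotted are those without the same sign in both LPS pairs. The agreement seen with LPS thus follows from the choice of genes.

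Biglycan was given before CpG to cells labelled Bgn-/-, a pair that shares no library with the lumican pairs. Bgn stood at 3.03 TPM with biglycan and CpG, against 3.49 TPM with CpG alone, so the label is used as a name only. Arg1 stood at 7.36 TPM with biglycan and CpG, against 18.4 TPM with CpG alone. Cxcl13 stood at 333 TPM with biglycan and CpG, against 584 TPM with CpG alone, and Tgfbi at 181 TPM with biglycan and CpG, against 319 TPM with CpG alone. Slc6a12 stood at 45.3 TPM with biglycan and CpG, against 28.2 TPM with CpG alone, and Cxcl2 at 387 TPM with biglycan and CpG, against 269 TPM with CpG alone. Fcgr1 was at 11.5 TPM with biglycan and CpG, against 14.02 TPM with CpG alone. Ifit2 was at 9.17 TPM with biglycan and CpG, against 9.36 TPM with CpG alone, and Ifit3 at 21.1 TPM with biglycan and CpG, against 18.7 TPM with CpG alone. With 1 library each, this pair has no replicate check. Of the 18 called coding genes, 14 (77.8%) had the same sign here as with lumican, against 58.4% of all tested genes. The interferon list had a median of -0.01, with 28 of 46 lower, against 44.3% of all tested genes. The wild-type biglycan pair has the same library with CpG alone as the wild-type lumican pair. In its biglycan library Ifit2 stood at 15.4 TPM and Ifit3 at 31.9 TPM, against 76.3 and 158 TPM with CpG alone, with 45 of 46 list members lower and a median of -0.96, against 29.9% of all tested genes lower and a median of 0.11. Over 7 CpG libraries, 4 genes (0.034%) differed between lumican and biglycan. For Ifit2, chosen after its values were seen, lumican minus biglycan was 0.75 ± 0.51 on the log2 scale (limma adjusted p 0.994).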

How the data were processed

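RNA from CD11b+ peritoneal macrophages was made into stranded TruSeq libraries and sequenced on an Illumina HiSeq, per the labels' protocols. The submitters' processing notes name kallisto 0.44.0, bcl2fastq 1.8.4 and GRCm38 as the build. The deposited table gives TPM per transcript, scaled within each library by the authors. Since it holds no counts, the depth is unknown and no counting interval is given.

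Transcripts were summed per gene name. The table has 89562 transcripts, 82788 of them with a gene name, and GENCODE vM21 gave a name, by transcript ID, to 5424 of the 6774 without one. The remaining 1350 were dropped (5350 to 7548 TPM per library), which left 23545 genes. The test took the 11752 genes whose mean over the 4 libraries reached 1 TPM. It was limma (version 3.58.1, R 4.3.3), two-sided, on log2(TPM + 1) with the genotype label as a block and eBayes with a trend (8.58 prior and 1 residual degrees of freedom). P-values were adjusted by Benjamini-Hochberg over all tested genes, and called means an adjusted p under 0.05. Differences are on the log2(TPM + 1) scale, which understates the change of low genes, and ± is the moderated SE of limma. With 8.58 prior and 1 residual degrees of freedom, that SE comes mostly from the trend over all genes. The comparison with LPS used 8 libraries in 1 fit, with a lumican difference within each stimulus and 2 residual degrees of freedom. Its residual spread was pooled over the CpG and LPS pairs, and it gave the p-values with LPS. The fit was tested on simulated data. Lists are described by counts and medians, with no test, and 1 interferon list member is counted but not plotted or reported by itself here. Genes that respond to CpG come from libraries labelled Bgn-/-, which are in neither pair, with 5 TPM or more in the higher of 2 libraries.

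The genes named are Lum, Bgn, Tlr9, Tlr4, Cd14, Myd88, Irf7, Tnf, Il6, Il10, Cxcl10 and Saa3, and members of each list. To these come genes of 10 TPM or more among the 15 largest mean differences each way with one sign in both pairs, and the 8 largest opposite movements. Called coding genes, and gene models with shared words, were named after their values were seen. Members, lists and tests were chosen with earlier results of these data known. Words of 31 bases shared between genes served to find those whose reads can be split. Alternatives were pseudocounts of 0.1 and 5, other filters, scalings and fits, and leaving out each library. Python 3.11.15 with pandas 2.3.3, numpy 2.4.6 and, for the plots, matplotlib 3.10.9 made the tables.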

Additional observations from a re-analysis of the deposited data

Results flagged for a closer look

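Differences between the 2 pairs were untested, since each is 1 library against 1. In Mup-ps24, a major urinary protein pseudogene, the pairs went opposite ways, with 0 and 19.95 TPM with lumican, against 20.1 and 0 TPM with CpG alone, the label Lum-/- first. The difference of the pairs was 8.79 on the log2 scale (wild type minus label Lum-/-). In Iglj3p, an antibody light chain segment, it was 3.33, with 5.84 and 21.6 TPM with lumican, against 24.5 and 7.35 TPM with CpG alone.

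For 5 gene models or pseudogenes, the lumican response with CpG differed from that with LPS by limma with an adjusted p of 0.0452 each. The difference (CpG response minus LPS response, log2 scale) was 4.88 for Gm6361, 3.63 for Gm42533 and 2.63 for Dynlt1-ps1. It was -2.91 for Gm49325 and -3.79 for Gm49051. Gm6361 stood at 29.5 and 29.5 TPM with lumican and CpG, against 29.2 and 7.77 TPM with CpG alone, a difference that did not pass by itself (limma adjusted p 0.59). It stood at 0.371 and 4.17e-07 TPM with lumican and LPS, against 20.2 and 14.8 TPM with LPS alone, so most of its difference of responses lies in the LPS pairs. Gm42533 stood at 5.89 and 3.19 TPM with lumican and CpG and was listed at 0 in both libraries with CpG alone.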

How the results depend on the processing

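The count of called genes, 39 (13 higher, 26 lower), moved by under 1.5 times with pseudocounts of 0.1 (34, 12 higher and 22 lower) and 5 (32, 13 higher and 19 lower) and further with the other choices. It was 143 (49 higher, 94 lower) with a filter at a mean of 5 TPM, 125 (43 higher, 82 lower) over coding genes only, a choice made after seeing the data, and 79 (26 higher, 53 lower) with robust eBayes. It was 25 (16 lower) with the most abundant transcript per gene, 14 (6 higher, 8 lower) over 7 CpG libraries, 12 (6 higher, 6 lower) over 8 libraries with both stimuli and 6 (3 higher, 3 lower) after median-of-ratios scaling. It was 2 (0 higher, 2 lower) after quantile normalization and without the genotype block. It was 0 with no filter (limma, 896 genes at an unadjusted p under 0.05) and in additive fits of 21 or 18 libraries (233 and 603 genes). Without each library in turn it ranged from 0 to 0, with the lone pair assumed to vary like the LPS pairs. All 39 genes were among the 79, 25 among the 143, and the 12 and the 14 were all among the 39. The cause was not tested.

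Genes 2-fold apart in both pairs, 27 in the main analysis, numbered 56 with a pseudocount of 0.1 and 6 with 5, 10 with at least 5 TPM, 8 over coding genes, 94 at 1.5-fold and 13 at 3-fold. Those 2-fold apart in opposite directions, 16, numbered 36 and 4 with these pseudocounts, 3 with at least 5 TPM, 26 with no filter and 4 over coding genes. The 5 genes whose responses with CpG and LPS differed became 3 with a pseudocount of 0.1, 14 with at least 5 TPM, 12 over coding genes, and 0 after quantile normalization, after median-of-ratios scaling, with no filter or with the most abundant transcript. The CpG-responsive genes numbered 125 with a pseudocount of 5 and 45 at 4-fold.

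Ifit3 turned to 0.13 and 0.044 and Irf7 to 0.18 and 0.14 in the additive fits of 21 and 18 libraries, where Tlr9 was at -0.061 and -0.042, Il10 at -0.014 and -0.015 and Saa3 at 0.040 and 0.016. Tlr9 was also at -0.016 over 7 CpG libraries, Il10 at -0.0020 after median-of-ratios scaling and Saa3 at 0 after quantile normalization. Without each library in turn, Il6 lay between -0.045 and 0.33, Tlr9 between -0.20 and 0.23, Il10 between -0.064 and 0.10 and Saa3 between -0.18 and 0.15. The main fit pairs libraries by genotype label. No paired analysis was possible by replicate number, because each group holds 1 library and the labels give no such numbers. With TPM only, what depth limits in low genes is unknown.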
